A study of Mus musculus with 10 samples.

Results

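The genes described here are 42 genes of autophagy and the lysosome: 3 transcription factors of the MiT/TFE family, 21 genes of the autophagy machinery and its main cargo receptor, and 18 genes of lysosomal proteins. They were listed by name for their role in the pathway, with earlier results of these data known, and all 42 were found among the 18381 genes of the table and passed the filter on low counts. RNA was sequenced from single first lower molars of wild type C57BL/6JOlaHsd mouse embryos at embryonic day 14 (E14). The teeth were kept for 6 h in hanging drop culture with mouse recombinant IGF1 at 750 ng per ml or with an equal volume of its vehicle, phosphate-buffered saline with bovine serum albumin. The left and right molars of an embryo went to different treatments, so that embryos 1, 2, 3, 4 and 6 make 5 pairs of an IGF1 and a control sample, and the comparison asks how RNA levels changed within embryos after IGF1. Every group was a cultured, dissected tooth germ, and uncultured teeth were not analysed here.

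In autophagy, a double membrane grows around a portion of cytoplasm and closes into an autophagosome, which then fuses with the lysosome. The ULK1 kinase complex starts the process, a PI3-kinase complex with Becn1 and Atg14 marks the growing membrane, and small proteins of the Atg8 family (LC3 and GABARAP) are coupled to its lipids and hold the cargo receptors. The lysosome breaks down the contents with acid hydrolases, many of whose genes can be switched on by TFEB and its relatives. Growth factor signalling through PI3-kinase, Akt and mTORC1 is known to hold autophagy down, largely by phosphorylating ULK1, TFEB and FoxO proteins. RNA levels show neither that phosphorylation nor the flux of autophagy.

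Of the 42 genes, 6 fell after IGF1, 0 rose, and 36 did not pass the test. The 6 were Map1lc3b and Gabarapl1 of the Atg8 family, Ulk1 and Atg14 of the initiation complexes, and the lysosomal peptidases Ctsa and Tpp1. Their RNA was lower by 17.8% (Ulk1) to 32.2% (Ctsa). The test was edgeR's quasi-likelihood test with the embryo as a block, and genes were called at a Benjamini-Hochberg adjusted p under 0.05 over all genes tested. Of 14504 genes tested, 1666 (11.5%) were called, 691 (4.76%) lower and 975 (6.72%) higher, so that 14.3% of the 42 genes were lower beside 4.76% of all genes. Without adjustment, 17 of the 42 (16 below and 1 above 0) and 26.5% of all genes had a p under 0.05. DESeq2 and limma-voom also called 0 of the 42 higher. The 6 lower calls became 3 without embryo 1, 3 without embryo 4 and 4 without the embryo block. Over all genes, the 691 lower calls became 456, 383 and 331 in the same 3 fits.

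The fitted log2 fold change (IGF1 over control) was below 0 for 31 of the 42 genes and above 0 for 11, while 50.6% of all genes were below 0. The median over the 42 genes was -0.12, beside -0.0038 over all genes tested. In embryos 1, 2, 3, 4 and 6 taken singly, the median log2 ratio of the 42 genes was -0.10, -0.07, -0.14, -0.24 and -0.15, whereas that of all genes tested stayed between -0.01 and 0.02. The IGF1 tooth was lower than its control tooth in all 5 embryos for 12 of the 42 genes (28.6%), beside 11.2% of all genes. These were Map1lc3b, Gabarapl1, Sqstm1, Ulk1, Atg14, Wipi2, Ctsa, Ctsb, Tpp1, Glb1, Hexa and Psap. Only Gla (2.38%) was higher in all 5 embryos, beside 13.0% of all genes. For 5 of the 42 (Map1lc3b, Atg14, Wipi2, Ctsa and Tpp1; 11.9%) every IGF1 value lay below every control value, which held for 3.03% of all genes. The reverse, every IGF1 value above every control value, held for 0 of the 42 and 4.21% of all genes. The tooth germ was sequenced whole, so fewer cells of a type and less RNA per cell cannot be told apart.

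**Figure D1:**
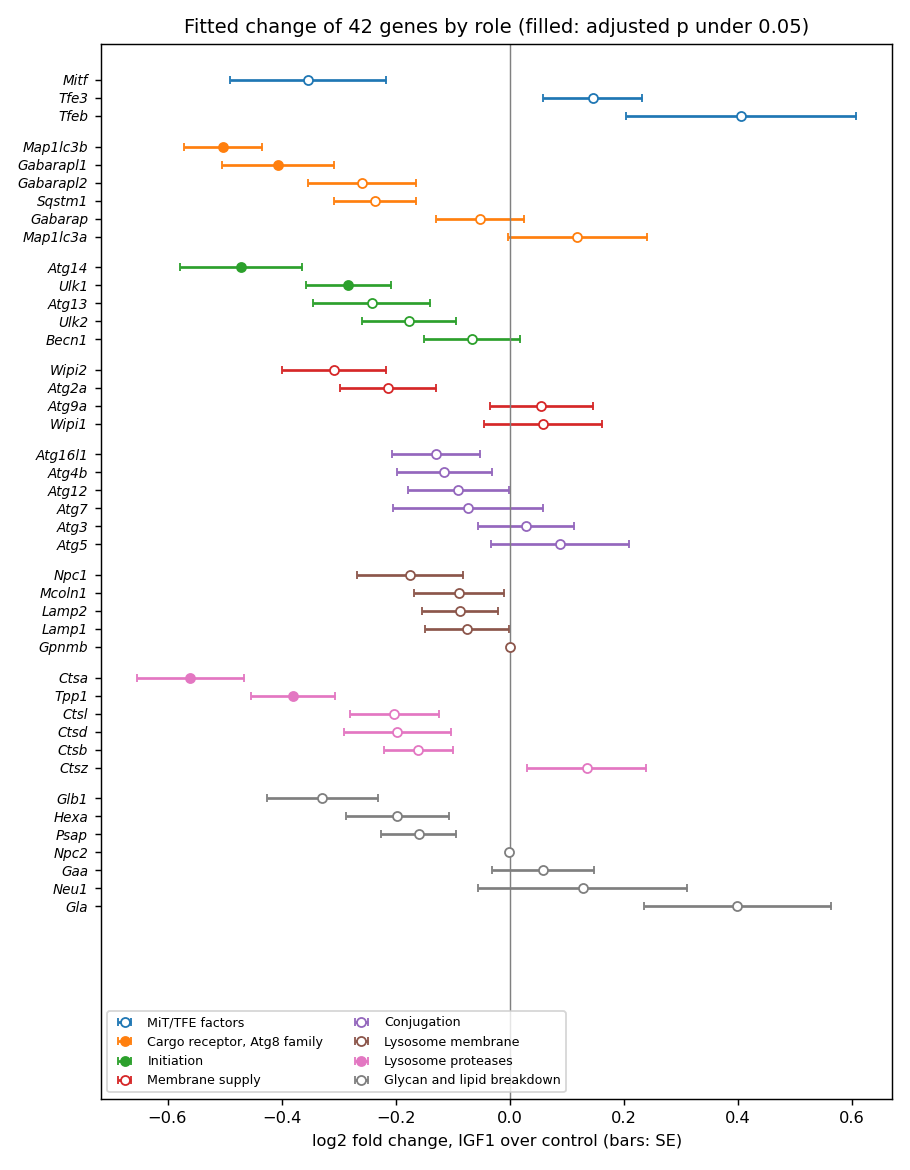
Fitted log2 fold change of each of the 42 genes (horizontal axis, IGF1 over control; bars, SE) by role, with filled points for the 6 genes called. The called genes run from -0.56 (Ctsa) to -0.28 (Ulk1), and the genes with positive values, up to 0.41 (Tfeb), have open points; Gpnmb and Npc2 are drawn without a bar.

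In the control teeth, levels per length of exon differed by as much as 115-fold between genes. Psap, the precursor of the saposins that help break down sphingolipids, was highest at 127 ± 22.3 CPM (counts scaled to a common library size) per kb of exon (mean ± SD, n = 5). It was followed by the lysosomal membrane protein gene Lamp1 at 77.6 ± 9.34 and the aspartic protease gene Ctsd at 68.8 ± 6.43 CPM per kb, which overlap within their SD. Gabarap (40.8 ± 3.90), Sqstm1 (36.0 ± 2.40) and Ctsb (35.2 ± 2.66) came next and did not differ beyond their spread. The lowest were Tfeb (1.10 ± 0.212), Gpnmb (1.31 ± 0.570) and Gla (1.89 ± 0.247 CPM per kb). The called genes stood in the middle, with Gabarapl1 at 22.0 ± 5.08, Ctsa at 20.4 ± 1.42, Map1lc3b at 15.7 ± 0.910, Ulk1 at 14.7 ± 1.72, Tpp1 at 12.2 ± 1.22 and Atg14 at 6.79 ± 0.693 CPM per kb. Exon length here is the union of all annotated exons, which lowers the level of genes with long rare exons.

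**Figure D2:**
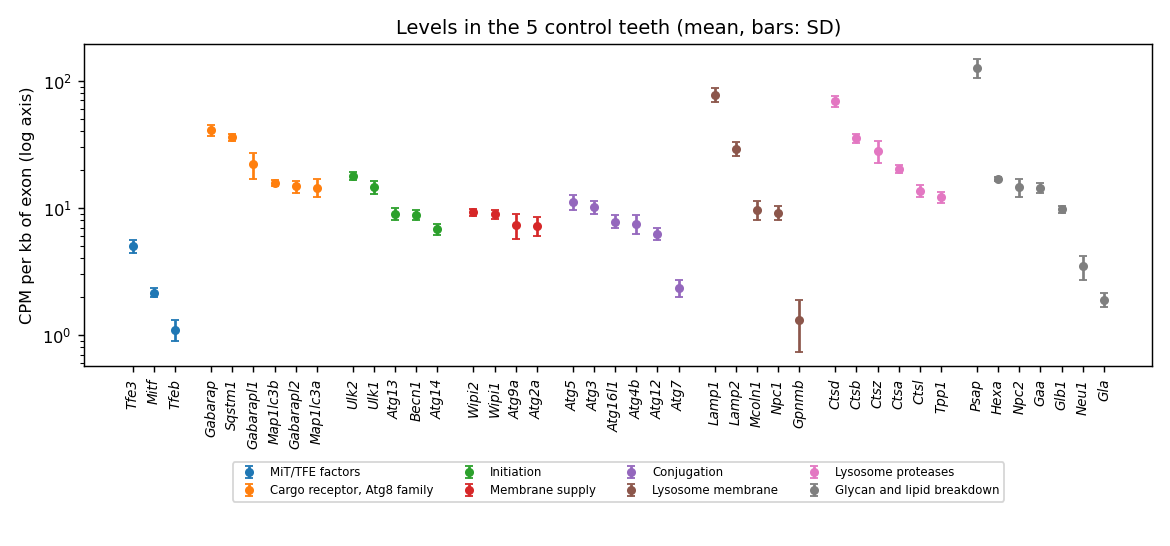
Level of each of the 42 genes in the 5 control teeth in CPM per kb of exon (log axis; points, mean; bars, SD), ordered within each role. Psap (127), Lamp1 (77.6) and Ctsd (68.8) lie at the top and Tfeb (1.10), Gpnmb (1.31) and Gla (1.89) at the bottom.

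The Atg8 family and the cargo receptor Sqstm1 form a group of 6 genes, of which 2 fell, 4 did not pass, and the median log2 fold change was -0.25. Map1lc3b (chr8:121590361-121598760, ENSMUSG00000031812, coordinates of GRCm38) encodes LC3B, the protein most often used as a mark of autophagosomes. It stood at 126, 116, 109.9, 124 and 115 CPM in the control teeth of embryos 1, 2, 3, 4 and 6, and at 94.2, 78.1, 84.4, 84.3 and 76.9 CPM in their IGF1 teeth. The groups did not overlap, and the drop was of like size in every embryo. Its log2 fold change was -0.50 (SE 0.07, n = 5 pairs, adjusted p = 0.00113), a level lower by 29.4%. Its exons share 58 of 7517 bases with Zcchc14 on the other strand (log2 fold change 0.02).

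Gabarapl1 (chr6:129533160-129542346, ENSMUSG00000030161), a member of the GABARAP branch of the family, had 60.1, 32.7, 39.6, 47.1 and 42.4 CPM in the control teeth and 40.3, 31.4, 31.6, 34.0 and 27.6 CPM in the IGF1 teeth. The groups overlapped, with embryo 1 high in both teeth and embryo 2 low in its control tooth, but each IGF1 tooth was below its own partner, in embryo 2 by little. The log2 fold change was -0.41 (SE 0.10, adjusted p = 0.0228). The call was lost when embryo 1, 4 or 6 was left out, with adjusted p from 0.0807 to 0.0926, and without the embryo block (adjusted p = 0.125). Of its 2013 exon bases, 570 overlap the noncoding 1700101I11Rik on the other strand.

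Sqstm1 encodes p62, a receptor that binds ubiquitinated cargo and is itself degraded by autophagy. It ranged from 111 to 130.5 CPM in control teeth and from 88.1 to 129 CPM in IGF1 teeth, was lower in all 5 embryos, and had a log2 fold change of -0.24 (SE 0.07, adjusted p = 0.0590). Gabarapl2 had -0.26 (SE 0.10, adjusted p = 0.106) and was lower in 4 of 5 embryos. The other two family members, Gabarap and Map1lc3a, had -0.05 (SE 0.08) and 0.12 (SE 0.12). Whether Map1lc3b and Map1lc3a, which encode close relatives, differed in their change was not tested.

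Initiation was represented by 5 genes, all with log2 fold changes below 0 and a median of -0.24, of which Ulk1 and Atg14 fell. Ulk1 (chr5:110784488-110810097, ENSMUSG00000029512) encodes the kinase at the start of the pathway. Its control teeth had 102, 80.9, 98.0, 108 and 86.6 CPM and its IGF1 teeth 81.2, 68.7, 89.4, 76.9 and 73.5 CPM in embryos 1, 2, 3, 4 and 6. The groups overlapped, while within each embryo the IGF1 tooth was the lower. The log2 fold change was -0.28 (SE 0.07, adjusted p = 0.0328). The call was lost without embryo 1, 2, 4 or 6 (adjusted p from 0.0659 to 0.131), without the block (0.129) and by DESeq2 (0.0505).

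Atg14 (chr14:47540893-47570649, ENSMUSG00000037526) encodes the subunit that directs the PI3-kinase complex to the site of autophagosome formation. It had 28.2, 25.1, 29.1, 32.2 and 32.3 CPM in control teeth and 16.4, 20.1, 25.0, 21.3 and 22.1 CPM in IGF1 teeth. The groups did not overlap, although the highest IGF1 value lay just under the lowest control value, and embryo 1 had the widest gap. The log2 fold change was -0.47 (SE 0.11, adjusted p = 0.0175), and the call was lost without embryo 1, 4 or 6 (adjusted p from 0.0527 to 0.0731). Of its 4322 exon bases, 239 overlap the antisense gene Gm49004. The other initiation genes did not pass: Atg13, which bridges the ULK1 complex, had -0.24 (SE 0.10), Ulk2, the paralog of Ulk1, had -0.18 (SE 0.08), and Becn1, the partner of Atg14, had -0.07 (SE 0.08).

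None of the 4 genes of membrane supply (2 at an unadjusted p under 0.05) and none of the 6 genes of the conjugation system passed the test. Wipi2 (chr5:142627698-142670588, ENSMUSG00000029578), which reads the lipid made by the PI3-kinase complex and recruits Atg16l1, came nearest to the threshold of all uncalled genes. It had 97.2, 92.0, 102, 102 and 91.5 CPM in control teeth and 90.7, 62.0, 73.7, 80.6 and 89.7 CPM in IGF1 teeth. The groups lay just apart, with embryos 1 and 6 nearly level between their teeth. Its log2 fold change was -0.31 (SE 0.09, adjusted p = 0.0506), and it was called in 6 of 12 alternative analyses. Atg2a, a lipid transfer protein gene, had -0.21 (SE 0.08), Atg9a, whose protein is the scramblase of the seed vesicles, 0.06 (SE 0.09), and Wipi1 0.06 (SE 0.10).

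The conjugation genes couple Atg8 proteins to lipid, and their median log2 fold change was -0.08. Atg16l1 had -0.13 (SE 0.08), the protease gene Atg4b -0.11 (SE 0.08), the ubiquitin-like Atg12 -0.09 (SE 0.09) and the activating enzyme gene Atg7 -0.07 (SE 0.13). Atg3 had 0.03 (SE 0.08) and Atg5 0.09 (SE 0.12). Adjusted p ranged from 0.317 to 0.871 over these 6 genes, 0 of which had an unadjusted p under 0.05.

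**Figure D3:**
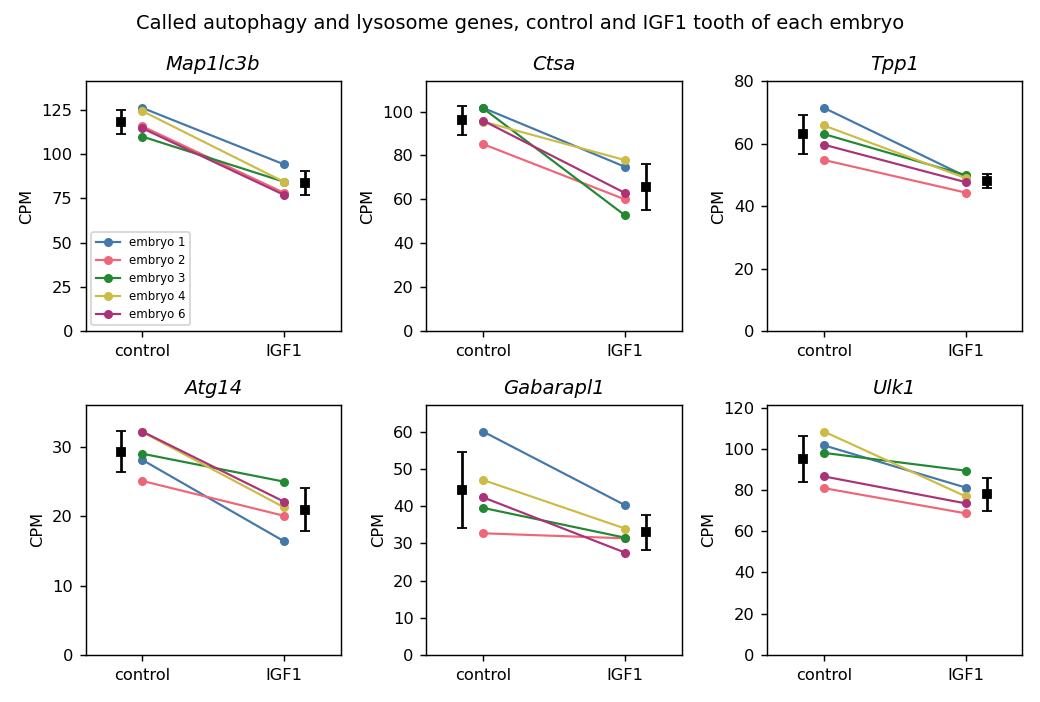
CPM of the 6 called genes in the control and IGF1 tooth of each embryo (coloured lines join the teeth of an embryo; black squares and bars, mean ± SD of 5 teeth; vertical axes start at 0). All 30 lines run downward, and the groups are apart for Map1lc3b, Ctsa, Tpp1 and Atg14.

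Of the 6 lysosomal peptidase genes, 2 fell, 4 did not pass, and the median log2 fold change was -0.20. Ctsa (chr2:164832873-164841032, ENSMUSG00000017760) encodes cathepsin A, a serine carboxypeptidase that also protects the beta-galactosidase of Glb1 and the sialidase of Neu1 in a shared complex. It had 102, 85.2, 101.5, 95.5 and 95.9 CPM in control teeth and 74.9, 60.03, 52.8, 77.9 and 63.0 CPM in IGF1 teeth. The groups did not overlap, and embryo 3 had the widest gap. The log2 fold change was -0.56 (SE 0.09, adjusted p = 0.00349), the most negative of the 42. Exons of Ctsa share 495 of 4715 bases with Pltp on the other strand (log2 fold change 0.32) and 324 with Neurl2, and it is not stated whether the counting used strand.

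Tpp1 (chr7:105744811-105752235, ENSMUSG00000030894) encodes tripeptidyl peptidase, whose loss causes a childhood form of neuronal ceroid lipofuscinosis. Its values were 71.5, 54.8, 63.1, 65.8 and 59.7 CPM in control teeth and 49.5, 44.3, 49.9, 49.0 and 47.7 CPM in IGF1 teeth. The groups did not overlap, and the IGF1 teeth lay closer together than the control teeth. The log2 fold change was -0.38 (SE 0.07, adjusted p = 0.00784). Map1lc3b, Ctsa and Tpp1 were called lower in all 12 alternative analyses, with highest adjusted p of 0.00823, 0.0159 and 0.0389.

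The 4 cathepsin genes that did not pass include the main endosomal proteases. Ctsb had a log2 fold change of -0.16 (SE 0.06, adjusted p = 0.115) and was lower in all 5 embryos. Ctsd had -0.20 (SE 0.09), Ctsl -0.20 (SE 0.08) and Ctsz 0.13 (SE 0.10).

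None of the 7 genes for breakdown of glycans and lipids passed (3 at an unadjusted p under 0.05), and their median log2 fold change was -0.0008. Glb1 (chr9:114401076-114474898, ENSMUSG00000045594) had 31.6, 27.3, 29.9, 27.4 and 30.1 CPM in control teeth and 28.2, 22.0, 20.1, 22.9 and 24.6 CPM in IGF1 teeth. Only the IGF1 tooth of embryo 1 reached into the control range. Its log2 fold change was -0.33 (SE 0.10, adjusted p = 0.0529), and it was called in 3 of 12 alternative analyses. Neu1, the third enzyme of the complex with cathepsin A, had 0.13 (SE 0.18).

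Gla, which encodes alpha-galactosidase A, was the only one of the 42 genes to be higher in all 5 embryos. It ranged from 5.50 to 7.16 CPM in control teeth and from 6.42 to 10.3 CPM in IGF1 teeth, with a log2 fold change of 0.40 (SE 0.16, adjusted p = 0.148). Hexa had -0.20 (SE 0.09), Psap -0.16 (SE 0.07) and the acid glucosidase gene Gaa 0.06 (SE 0.09). Npc2, which hands cholesterol to Npc1, had nearly the same fitted level in both groups (-0.0008).

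The 5 genes of the lysosomal membrane had small log2 fold changes, from -0.18 to -0.0001, and none passed (0 at an unadjusted p under 0.05). Npc1, the cholesterol exporter, had -0.18 (SE 0.09), the calcium channel gene Mcoln1 -0.09 (SE 0.08), Lamp2 -0.09 (SE 0.07) and Lamp1 -0.08 (SE 0.07). Lamp1 ranged from 184.5 to 250.3 CPM in control teeth and from 182.5 to 209.4 CPM in IGF1 teeth. Gpnmb, a glycoprotein gene of melanocytes and macrophages, stayed under 13 CPM in every tooth and had a fitted value of -0.0001.

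None of the 3 MiT/TFE factors passed (1, Mitf, at an unadjusted p under 0.05), and they differed in sign. Tfeb ranged from 4.39 to 7.32 CPM in control teeth and from 6.33 to 11.3 CPM in IGF1 teeth, with a log2 fold change of 0.41 (SE 0.20, adjusted p = 0.232), and it was higher in 3 of 5 embryos. Tfe3 had 0.15 (SE 0.09, adjusted p = 0.323) and Mitf -0.35 (SE 0.14, adjusted p = 0.124), the latter lower in 4 of 5 embryos. Tfeb was counted at as few as 21 reads in a tooth.

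**Figure D4:**
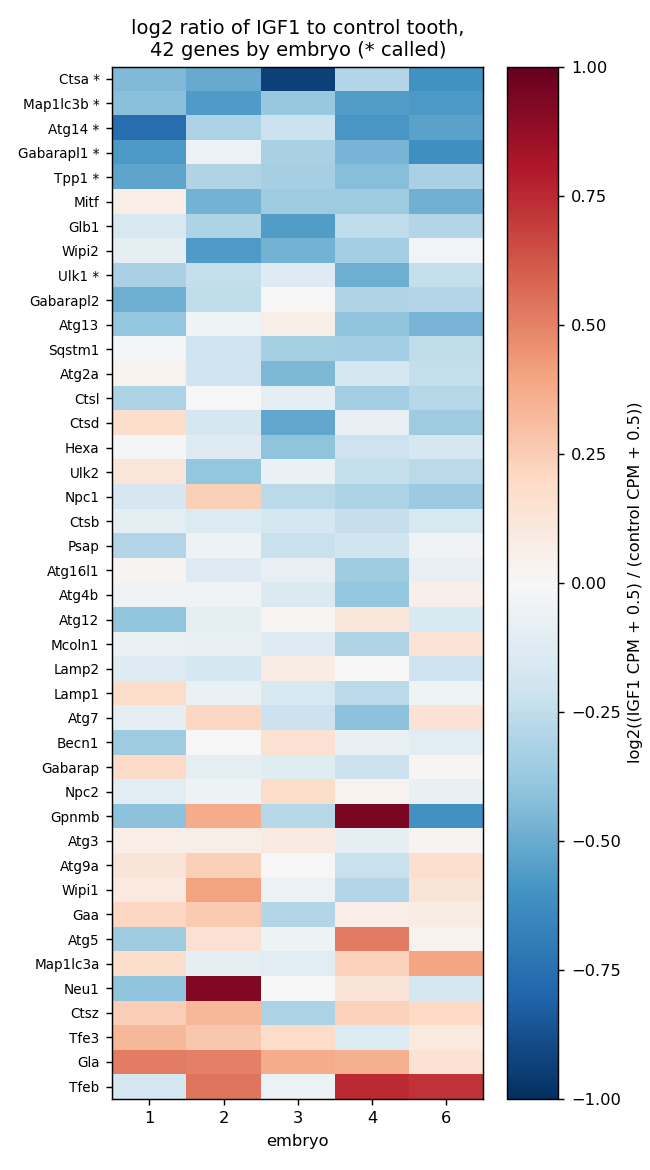
Log2 ratio of the IGF1 to the control tooth in each embryo (columns) for the 42 genes (rows, ordered by fitted change; colour from -1 to 1; an asterisk marks the 6 called genes). The upper rows, from Ctsa to Gabarapl2, are blue in nearly every embryo, Gla is red in all 5, and Gpnmb and Neu1 change colour between embryos.

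By Euclidean distance between the log2 ratios of the 5 embryos, the pattern most like that of Map1lc3b was that of Tpp1 (0.404), then Atg14 (0.457) and Gabarapl1 (0.540). Ctsa was nearest to Glb1 (0.595), then Map1lc3b (0.622) and Tpp1 (0.711). Tpp1 was nearest to Ulk1 (0.313), then Gabarapl2 (0.362) and Atg14 (0.378). Genes with a similar mean change are close by this measure, and all genes of an embryo share its libraries.

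Promoters are shown because the CLEAR element, the site at which TFEB and its relatives bind in lysosomal genes, lies near the start of such genes. Each line below holds 80 bases before and 20 bases from the start of transcription in RefSeq (GRCm38.p6), on the gene's strand, 5′ to 3′. Capitals mark TCACGTG, the core of the element, or its reverse complement CACGTGA. The 6 called genes come first, and Lamp1 and Mcoln1, which were not called, were added after their values were seen as examples with several matches. Their positions are chr8:121590358-121590457 (Map1lc3b, plus strand), chr6:129533112-129533211 (Gabarapl1, plus), chr5:110810062-110810161 (Ulk1, minus), chr14:47568415-47568514 (Atg14, minus), chr2:164833693-164833792 (Ctsa, plus), chr7:105752216-105752315 (Tpp1, minus), chr8:13159081-13159180 (Lamp1, plus) and chr8:3500439-3500538 (Mcoln1, plus).
Map1lc3b: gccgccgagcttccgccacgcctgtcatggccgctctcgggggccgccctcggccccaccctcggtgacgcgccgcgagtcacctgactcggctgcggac
Gabarapl1: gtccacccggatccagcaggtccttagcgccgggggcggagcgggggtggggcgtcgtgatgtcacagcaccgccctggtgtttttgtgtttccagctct
Ulk1: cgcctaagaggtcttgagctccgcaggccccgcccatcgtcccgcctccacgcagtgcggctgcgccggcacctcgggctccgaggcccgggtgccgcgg
Atg14: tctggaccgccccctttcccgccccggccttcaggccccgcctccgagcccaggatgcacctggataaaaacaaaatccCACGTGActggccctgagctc
Ctsa: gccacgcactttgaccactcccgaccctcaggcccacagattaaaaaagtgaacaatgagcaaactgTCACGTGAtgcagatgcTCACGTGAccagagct
Tpp1: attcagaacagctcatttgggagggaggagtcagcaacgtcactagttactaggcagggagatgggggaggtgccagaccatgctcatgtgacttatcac
Lamp1: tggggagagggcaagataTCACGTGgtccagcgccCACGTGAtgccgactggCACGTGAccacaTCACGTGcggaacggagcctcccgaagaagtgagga
Mcoln1: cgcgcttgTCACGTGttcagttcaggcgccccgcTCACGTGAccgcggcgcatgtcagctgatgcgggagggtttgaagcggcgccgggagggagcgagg
GENCODE mouse M21, from which the gene coordinates were read, places the first exon of Atg14 and of Ctsa further upstream than these starts. Ctsa has 2 promoter entries in RefSeq, and the one with matches is printed.

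Sequences from 250 bases before to 50 bases after the start were found for 36 of the 42 genes, and Map1lc3a, Becn1, Atg12, Atg16l1, Npc1 and Ctsb had no entry. TCACGTG or CACGTGA occurred in 10 of the 36 genes (27.8%), beside 4.29% of all 27025 genes with a promoter entry and 6.63% of those tested here. The 10 were Atg14, Atg3, Atg7, Ctsa, Ctsd, Gaa, Gla, Glb1, Lamp1 and Mcoln1. The 42 genes include textbook targets of TFEB, so this share is not independent of how they were chosen. Of the called genes, Atg14 and Ctsa held the letters, and Map1lc3b, Gabarapl1, Ulk1 and Tpp1 did not have them in this window. The genes with the letters ran from -0.56 (Ctsa) to 0.40 (Gla) in log2 fold change. The shorter E-box CACGTG, which lies inside TCACGTG, was in 12 of 36 genes (33.3%; also Atg5 and Ctsl), beside 8.09% of all and 11.3% of those tested. TGTTTAC or its reverse complement GTAAACA, a FoxO-type motif that shares no letters with the E-box match, was in 0 of 36, beside 4.05% of all and 3.13% of those tested. These are matches of letters on both strands and not measured binding.

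A further 112 genes of autophagy and the lysosome were examined, of which 111 were tested and Tfec was too low. In that wider list 12 genes fell (10.8%) and 4 rose (3.60%), beside 4.76% lower and 6.72% higher among all genes tested. The median log2 fold change of the list was -0.03. Of the 30 other autophagy genes tested, 5 fell. Rb1cc1, the scaffold of the ULK1 complex, had -0.35 (adjusted p = 0.0183), and Pik3c3, the catalytic subunit of the PI3-kinase complex that Atg14 joins, -0.48 (adjusted p = 0.00224). Atg16l2, a relative of Atg16l1, had -0.33 (adjusted p = 0.0378).

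The other 2 were lower by more than any of the 42 genes. Wdr45, a WIPI protein gene related to Wipi2, had 39.2, 30.1, 26.7, 40.6 and 28.8 CPM in control teeth and 12.7, 15.9, 17.6, 17.8 and 13.4 CPM in IGF1 teeth. The groups did not overlap, and the log2 fold change was -1.05 (SE 0.13, adjusted p = 0.000752). Its exons share 818 of 3310 bases with Gm45208 on the same strand (mean 0.514 CPM). Calcoco1, a receptor for selective autophagy of the endoplasmic reticulum, had 131, 84.3, 97.9, 123 and 96.9 CPM in control teeth and 49.8, 46.5, 47.5, 54.8 and 42.5 CPM in IGF1 teeth. Its groups lay far apart, with a log2 fold change of -1.12 (SE 0.09, adjusted p = 2.38e-05).

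Bnip3 and Tmem41b were the autophagy genes that rose. Bnip3, a mitophagy receptor gene that is also a known target of hypoxia-inducible factor, had 37.5, 32.9, 14.4, 18.01 and 12.4 CPM in control teeth and 54.7, 223, 178, 61.0 and 45.0 CPM in IGF1 teeth. Every IGF1 tooth was above every control tooth, with embryos 2 and 3 highest. The log2 fold change was 2.20 (SE 0.33, adjusted p = 0.00193). Of its 2265 exon bases, 504 overlap the antisense gene Gm45507. All 9 tested genes of a hypoxia response list (Vegfa, Slc2a1, Pgk1 and others) rose as well, with a median of 1.54, and their summed level had log2 ratios of 0.73, 2.39, 2.26, 0.93 and 0.98 in embryos 1, 2, 3, 4 and 6, again highest in 2 and 3. Their part in the change of Bnip3 was not tested. Tmem41b, a scramblase gene of the endoplasmic reticulum, had 0.47 (adjusted p = 0.00812).

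Of 31 other lysosomal hydrolases 3 fell and 1 rose. The asparaginyl endopeptidase gene Lgmn had a log2 fold change of -0.56 (adjusted p = 0.00193), the cathepsin gene Ctsf -0.91 (adjusted p = 0.00644) and the palmitoyl thioesterase gene Ppt1 -0.51 (adjusted p = 0.0151), while Scpep1, a carboxypeptidase gene, had 0.34 (adjusted p = 0.0272). Of 16 other membrane genes, Cln3 (-0.46, adjusted p = 0.0324), the sialic acid exporter Slc17a5 (-0.48, adjusted p = 0.0140) and the amino acid sensor Slc38a9 (-0.40, adjusted p = 0.0313) fell.

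Acid in the lysosome is made by the proton pump (V-ATPase). None of its 16 subunit and accessory genes passed, their median log2 fold change was 0.0023, and they ranged from -0.18 (Atp6v0d1) to 0.26 (Atp6v0a2), with 3 at an unadjusted p under 0.05. None of the 6 genes that sort hydrolases to the lysosome passed either, with 1 at an unadjusted p under 0.05. Of 12 genes of nutrient sensing at the lysosome, Flcn fell (-0.37, adjusted p = 0.0467) and its partner Fnip2 rose (0.30, adjusted p = 0.0499). Both lay just under the threshold, and Flcn was nearly level in embryo 2 (control 38.7 and IGF1 38.5 CPM). Whether these calls held in the alternative analyses was not examined gene by gene. The difference between the pump and the 42 genes was not tested.

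**Figure D5:**
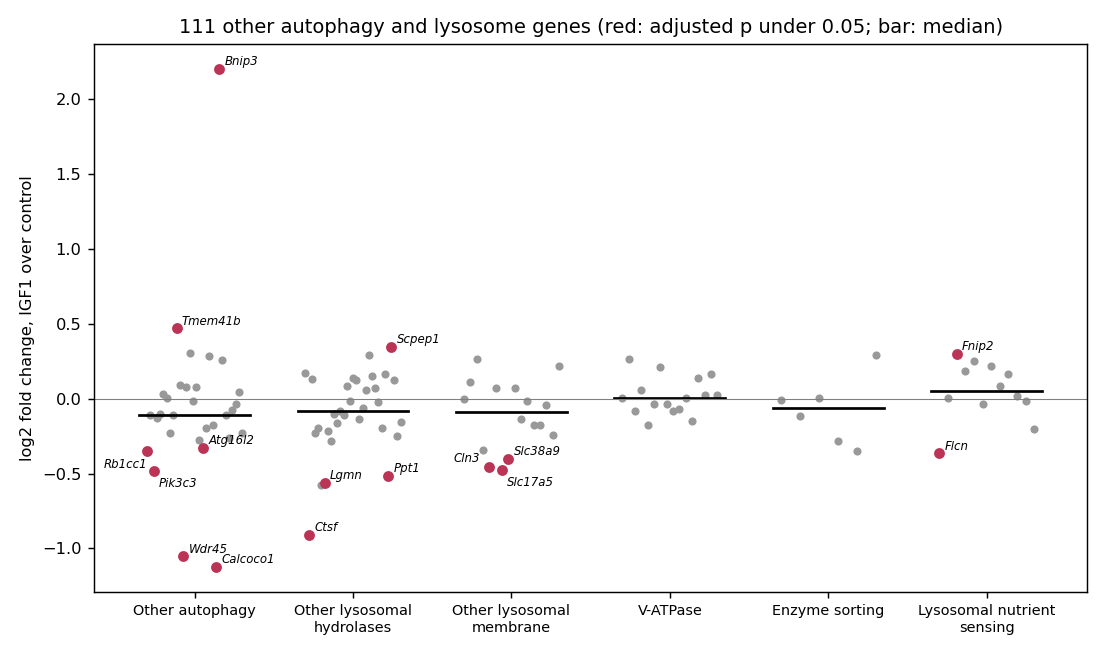
Log2 fold change (vertical axis, IGF1 over control) of 111 other autophagy and lysosome genes in 6 lists; red points are the 16 genes called, grey points those not called, and bars the list medians. Bnip3 (2.20) lies far above the rest, Calcoco1 (-1.12), Wdr45 (-1.05) and Ctsf (-0.91) lie lowest, and the V-ATPase list has 0 called genes.

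Total counts ran from 2845773 to 8403151 in control teeth and from 3456634 to 8763113 in IGF1 teeth, and both teeth of embryo 1 had the lowest. Markers of dental epithelium summed to 1587 to 2414 CPM and those of dental mesenchyme to 2536 to 3509 CPM, so both tissues were present in every tooth. Macrophages are rich in lysosomes, and 10 of 11 tested macrophage markers had log2 fold changes below 0 (median -0.33), of which Csf1r fell (-0.44, SE 0.11, adjusted p = 0.0234). The summed level of the 13 markers was 107 to 146 CPM in control teeth and 87.7 to 128 CPM in IGF1 teeth, with log2 ratios of -0.01, -0.60, -0.25, -0.25 and -0.29 in embryos 1, 2, 3, 4 and 6, and none was at 0 in any tooth. Of 5 endothelial markers all were below 0 and Cdh5 fell (-0.38, adjusted p = 0.0188), with summed levels of 325 to 369 CPM in control and 255 to 333 CPM in IGF1 teeth. Melanocyte markers summed to at most 12.3 CPM, and Pmel was at 0 in 2 teeth and Sox10 in 1. The part of these cell types in the changes of the 42 genes was not tested.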

How the data were processed

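The authors deposited estimated counts per gene, which are whole numbers and not normalized, for the 10 teeth. The submitters' processing notes name FastQC 0.11.8, Trimmomatic 0.39, Salmon 0.99.0, DESeq2 and the build GRCm38. The transcript set, the filters and the use of strand are not given in the sources used here. Gene symbols, coordinates and exons were read from GENCODE mouse M21, which held 18287 of 18381 identifiers (94 not). Near-identical or overlapping genes could split shared reads.

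Counts were rounded (0 values changed), filtered with filterByExpr, scaled by TMM and fitted with edgeR 4.0.16 (quasi-likelihood test) in R 4.3.3 with treatment and embryo, and p-values were adjusted by Benjamini-Hochberg over 14504 genes, with calls at an adjusted p under 0.05. The SE is the size of the log2 fold change divided by the square root of F, and none is given for values under 0.02. CPM use TMM effective library sizes, and log2 ratios of single embryos add 0.5 CPM. Other work was done in Python 3.11.15. The fit was tested on simulated data, and no result of that test is given or used here. Both teeth of a pair come from the same embryo by the labels. Deviations from the group means correlated at 0.319, 0.208, -0.0389, 0.170 and 0.313 within embryos 1, 2, 3, 4 and 6 (between different embryos, median -0.0463 and highest 0.232). Samples of a group differed by more than counting noise (chi-square per degree of freedom 4.47 to 19.4), and n counts embryos.

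All 42 genes are named. Values in every tooth are given for those called and for the 2 uncalled genes with the smallest adjusted p, and called genes of the wider list are named. 1 gene of the wider list is not reported here by name. The 42 genes, the lists and the tests were chosen with earlier results of these data known. Alternatives were DESeq2 size factors, upper-quartile scaling, the Wald test of DESeq2 1.42.0, limma-voom (limma 3.58.1), no filter on low counts, at least 10 counts in every sample, no embryo block, and leaving out each embryo.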

Additional observations from a re-analysis of the deposited data

Results flagged for a closer look

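In 4 of 84 groups of 5 teeth (42 genes, 2 treatments), 1 tooth stood apart from the others by Dixon's criterion, and chance alone gives about 4.2 such groups. Atg4b had 80.7 CPM in the control tooth of embryo 4, beside 53.6 to 60.4 CPM in the other control teeth. Atg5 had 17.6 CPM in the IGF1 tooth of embryo 1, beside 28.4 to 32.8 CPM in the other IGF1 teeth. Gpnmb had 5.05 CPM in the IGF1 tooth of embryo 3, beside 8.28 to 9.39 CPM. Npc2 had 93.3 CPM in the IGF1 tooth of embryo 1, beside 71.0 to 77.4 CPM. None of these genes was called.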

How the results depend on the processing

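The number of the 42 genes called lower was 6, and it was 7 with DESeq2 size factors, 9 with upper-quartile scaling, 6 by the DESeq2 Wald test, 8 by limma-voom, 6 with no filter on low counts, 9 with at least 10 counts in every sample, 4 without the embryo block, and 3 to 6 with an embryo left out (3 without embryo 1 and 3 without embryo 4). The number called higher was 0 in all 12 alternatives. Of the other 111 genes, 12 were lower, 7 without the replicate block and 7 to 11 with an embryo left out. The 4 higher became 2 by the DESeq2 Wald test, 2 without the block and 2 to 3 with an embryo left out. Over all genes, 331 lower and 556 higher calls were made without the block, and 383 to 678 lower and 595 to 924 higher with an embryo left out, where fewer teeth were tested. The cause of the other differences was not tested. Signs changed for 6 uncalled genes near 0. With an embryo left out, Wipi1 ranged from -0.0363 to 0.15, Atg5 from -0.0305 to 0.16, Atg7 from -0.15 to 0.0153, Gpnmb from -0.24 to 0.18, Neu1 from -0.0902 to 0.23 and Npc2 from -0.0525 to 0.0248. Gpnmb was 0.0009 with no filter and Npc2 0.0031 by limma-voom. Of the uncalled genes, Wipi2, Glb1 and Sqstm1 were called lower in 6, 3 and 2 of the 12 alternatives. The median of all genes stayed between -0.03 and -0.0003. Depth limits Tfeb, Gla and Gpnmb, whose counts were the lowest, and both teeth of embryo 1, the shallowest pair.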

Other observations

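Among the genes examined, 5 that are described here are known as genes whose loss causes neuronal ceroid lipofuscinosis, a group of lysosomal storage diseases: Ppt1, Tpp1, Cln3, Ctsd and Ctsf. This grouping was made after the values were seen. Of these 5, 4 fell after IGF1, with log2 fold changes of -0.51 (Ppt1), -0.38 (Tpp1), -0.46 (Cln3) and -0.91 (Ctsf), each lower in all 5 embryos. Ctsd had -0.20 (SE 0.09, adjusted p = 0.210). Ctss, a cathepsin gene known from immune cells, had -0.58 (SE 0.17, adjusted p = 0.0526) at 8.12 CPM in the control teeth. Cd68, a lysosomal membrane gene also known from immune cells, went the other way with 0.27 (SE 0.19, adjusted p = 0.421). It was higher in 4 of 5 embryos, at 5.625 CPM in the control teeth. Sort1, a sorting receptor gene, had 0.29 (SE 0.09, adjusted p = 0.0566). None of these 3 genes was called.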
